A study of Mus musculus with 8 samples.

Results

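A set of 10 astrocyte genes was followed in translating ribosome affinity purification followed by sequencing (TRAP-Seq) of Mu Opioid Receptor (MOR)-expressing neurons of the paraventricular nucleus of the thalamus (PVT). The genes were Aqp4, Gfap, Aldh1l1, Slc1a2, Slc1a3, Gja1, Gjb6, Aldoc, Glul and S100b, which are commonly used to mark astrocytes. They were found by symbol in the table of read counts, with 1 transcript kept for each gene (the one with the highest total), and 10 of 10 were present among 18939 genes. None of the 10 was at 0 in any library, the lowest count being 27 (Gjb6).

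All mice carried OPRM1cre X EGFP-L10a, in which Cre is made from the Oprm1 gene and switches on a GFP-tagged ribosomal protein from Rosa26, on a C57Bl/6J background. They were 8 to 12 weeks old at the start. The morphine group (4 libraries, replicates 3, 4, 7 and 8) drank morphine in 0.2% saccharin for 11 days, at 0.3 mg/ml first and 0.5 mg/ml at the end. The control group (4 libraries, replicates 1, 2, 5 and 6) drank 0.2% saccharin without morphine, which the labels call control drinking water. Each library pooled gross PVT dissections of 2 mice of the same sex, taken in the light phase, and each group had 2 male and 2 female libraries. Ribosomes were pulled down with antibodies to GFP, so the RNA should come mostly from cells with a history of Oprm1 expression. No unpurified or unbound RNA was analysed here, so enrichment or depletion of a gene by the purification was not measured.

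Astrocytes take up the glutamate that neurons release, turn it into glutamine and hand it back for reuse. They also clear potassium and water through channels at their endfeet, are joined into networks by connexin gap junctions, and wrap the synapses and vessels of the thalamus as they do elsewhere in the brain. Some of the genes are not read by astrocytes alone. Glul and S100b are also found in oligodendrocytes, and Slc1a2 transcripts occur in some neurons.

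Summed over the transcripts kept, the depth was 37081346 to 43311792 counts for control and 31151106 to 47582947 for morphine libraries. Levels are given as CPM, the usual scaling of counts to the normalized library size. Neuronal transcripts were abundant in all 8 libraries, with 3156 to 4196 CPM of the synaptic SNARE protein gene Snap25 and 226.2 to 402.3 CPM of the neuronal nuclear protein gene Rbfox3. The receptor gene Oprm1 had 463 to 1307 counts. Without unpurified RNA these levels do not show how pure the neuronal RNA was. Control replicate 5, which is labelled female, had counts of Ddx3y, Uty, Eif2s3y and Kdm5d, all on the Y chromosome, at 28.7% to 35.8% of the male mean. In no other library labelled female did any of these exceed 2 counts. The differences by sex are therefore also given without it.

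The 10 genes together made up between 704.2 and 1119 CPM, of which Slc1a2, Glul and Aldoc held most. Levels of different genes were compared as CPM divided by transcript length in kilobases (RPKM, mean ± SD, n = 8). The glycolytic enzyme gene Aldoc (130.9 ± 37.4 RPKM) and the glutamine synthetase gene Glul (106.7 ± 36.2 RPKM) stood at the top and overlapped, with Glul below Aldoc in 6 of 8 libraries. The glutamate transporter gene Slc1a2 (27.2 ± 4.52 RPKM) was below Glul in 8 of 8 libraries with no overlap of their ranges. This order rests on the transcript lengths used, 11595 bases for Slc1a2 and 2792 for Glul. In CPM the group means (control and morphine) were 314.5 and 317.5 for Slc1a2 and 280.0 and 315.7 for Glul. The calcium-binding protein gene S100b followed at 12.8 ± 7.32 RPKM and was below Slc1a2 in 7 of 8 libraries. All of the remaining genes were far lower, without overlap with S100b. The intermediate filament gene Gfap had 2.38 ± 1.03 RPKM, the second astrocyte glutamate transporter gene Slc1a3 had 1.54 ± 0.751 RPKM, and the connexin 43 gene Gja1 had 1.51 ± 0.893 RPKM. Slc1a3 was below Gfap in 8 of 8 libraries, although their ranges overlapped, while Gja1 was below Slc1a3 in 3 of 8, so that pair has no clear order. The folate enzyme gene Aldh1l1 (1.01 ± 0.553 RPKM), the connexin 30 gene Gjb6 (0.90 ± 0.490 RPKM) and the water channel gene Aqp4 (0.89 ± 0.476 RPKM) came last and differed from each other by less than their spread.

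**Figure D1:**
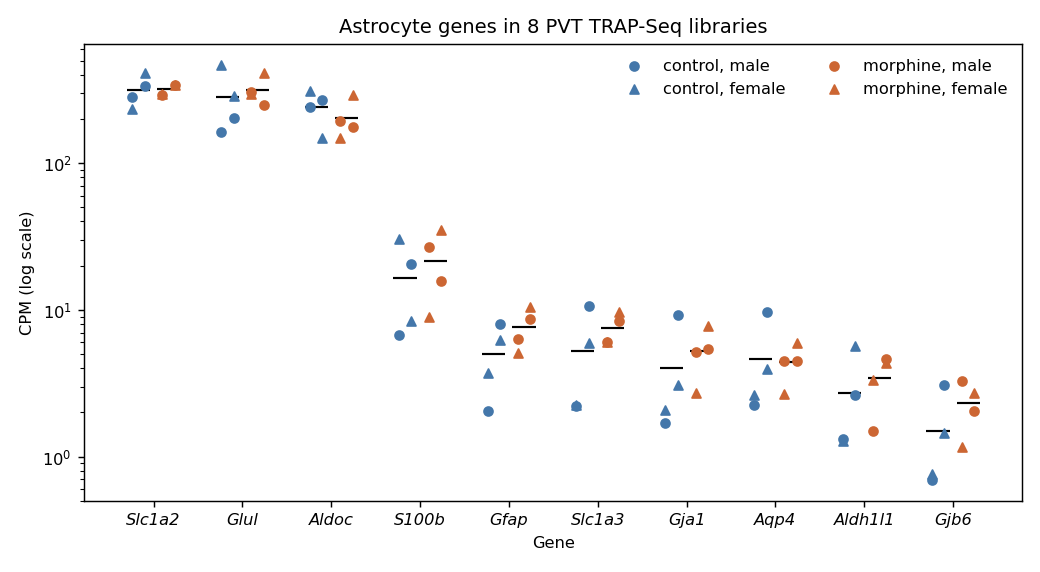
The level of each of the 10 genes (CPM on a log scale, 1 point per library, blue for control, orange for morphine, circles for male, triangles for female, bars for group means of 4 libraries). Slc1a2, Glul and Aldoc lie above 100 CPM in every library, and the control and morphine points of each gene overlap.

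Each gene was represented by 1 RefSeq transcript, placed on GRCm38.p6. Gfap (NM_010277) lies at chr11:102887336-102897200 on the minus strand, and Slc1a3 (NM_148938) at chr15:8634124-8710807, also minus. Slc1a2 (NM_001077514) lies at chr2:102658239-102790784 on the plus strand, where the lncRNAs LOC115489466 and Gm13872 overlap it, and Glul (NM_008131) at chr1:153899929-153909723, plus, with the miRNA gene Mir8114 inside. The connexin genes Gja1 (NM_010288) and Gjb6 (NM_001010937) lie at chr10:56377300-56390419, plus, and chr14:57123301-57133611, minus. S100b (NM_009115) is also on chromosome 10, at chr10:76253836-76261319, plus. Aldoc (NM_009657) lies at chr11:78323073-78327781, plus. Aldh1l1 (NM_027406) lies at chr6:90550768-90599171, plus, with the lncRNA Gm15756 overlapping it. It is not stated whether the counting used the strand, so reads of the overlapped genes cannot be assigned to 1 partner with certainty.

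The promoters of Slc1a3 and Gja1 are shown because these genes, with Gfap, Gjb6 and Aqp4, went up and down together across the libraries (the values are given further on), and because both hold a motif searched for. The sequences are the 150 bases before the RefSeq start on GRCm38.p6, 5′ to 3′ on the strand of the gene, at chr15:8710808-8710957 (minus) and chr10:56377150-56377299 (plus). Capitals mark a STAT motif in Slc1a3 and an AP-1 motif in Gja1.
Slc1a3: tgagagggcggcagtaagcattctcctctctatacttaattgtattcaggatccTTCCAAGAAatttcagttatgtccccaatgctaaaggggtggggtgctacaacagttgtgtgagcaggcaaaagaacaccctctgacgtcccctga
Gja1: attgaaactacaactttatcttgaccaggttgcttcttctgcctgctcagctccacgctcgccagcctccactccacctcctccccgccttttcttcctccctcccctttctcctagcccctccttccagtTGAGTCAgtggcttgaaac
In all, 5 motifs were searched for on both strands of the 150 bases, in 32851 RefSeq promoters and in 9 of the 10 genes, Aqp4 having no entry. The STAT motif (TTCCNNGAA) was in Slc1a3 and Aldoc and in 2.45% of all promoters. The AP-1 motif (TGANTCA) was in Gja1 and in 4.24% of all promoters. The NFI half-site (TTGGC), which 29.0% of promoters held, was in Aldoc, Glul, S100b and Slc1a2. None of the 9 held TATAAA, the TATA box (7.57% of promoters), or ACAAAG, a SOX motif (9.88%), and those of Gfap and Gjb6 held none of the 5. Of the 5 genes that went together, the 4 with an entry shared none of these motifs in this window.

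The main comparison asked whether the astrocyte genes in the purified RNA differed between morphine and control mice. None of the 10 was called by edgeR's quasi-likelihood test at an adjusted P value under 0.05 (0 of 10, adjusted over 18939 genes), and the background share called was 0.195%, or 37 genes. The other count test, DESeq2, called 2.65% of all genes and 0 of the 10, with adjusted P values between 0.433 and 0.982. At an unadjusted P value under 0.05, 12.1% of all genes and 0 of the 10 passed in edgeR. The morphine and control libraries overlapped for 10 of 10 genes, while 6.55% of all genes had groups that did not overlap. The fitted log2 fold change (morphine against control) was above 0 for 8 of 10, against 51.4% of all genes, with a median of 0.37 against 0.01 for all genes. Single libraries moved this: the median was 0.11 with 6 of 10 above 0 without control replicate 1, 0.099 with 7 of 10 above 0 without morphine replicate 8, and 0.55 with 9 of 10 above 0 without control replicate 2. The libraries are separate pools of mice, and the P values measure the spread between these pools. In bulk RNA, fewer cells of a type and less RNA per cell cannot be told apart.

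**Figure D2:**
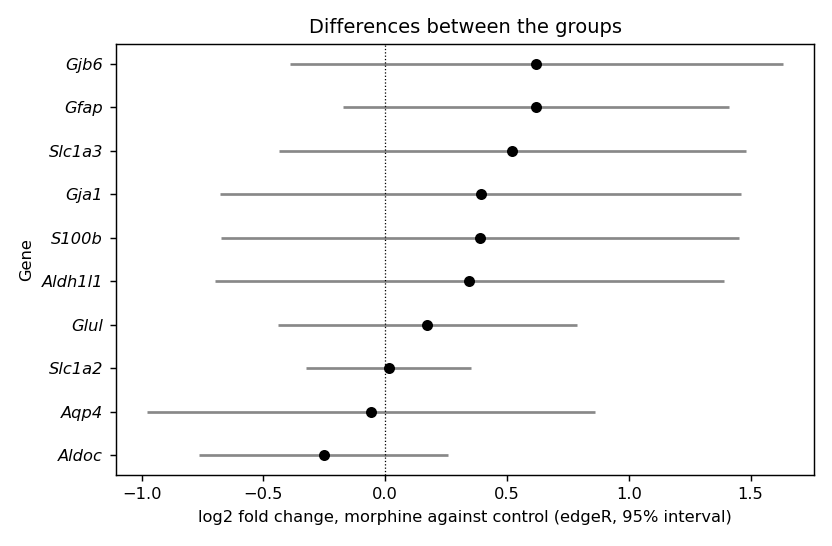
The log2 fold change of each gene, morphine against control, from edgeR (point) with its 95% interval (line), 4 libraries per group. The interval of every gene crosses 0, from Gjb6 and Gfap at 0.62 down to Aldoc at -0.25.

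Among Slc1a2, Slc1a3 and Glul, the genes of glutamate uptake and recycling in the set, Slc1a2, whose product GLT-1 carries most glutamate uptake in the forebrain, varied least between the libraries of each group. Its levels were 281, 334, 234 and 409 CPM in control replicates 1, 2, 5 and 6 and 290, 342, 298 and 340 CPM in morphine replicates 3, 4, 7 and 8. The morphine libraries lay inside the range of the controls, and the difference was 0.01 on the log2 scale (SE 0.15, 95% interval -0.33 to 0.35, edgeR adjusted P = 0.987).

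Slc1a3, which encodes the transporter GLAST, was low and spread widely, at 2.20, 10.6, 2.25 and 5.92 CPM in the control libraries and 6.04, 8.45, 6.01 and 9.68 CPM in the morphine libraries. The morphine libraries were all above 3 of the 4 controls, and control replicate 2 was the highest of all. The difference was 0.52 (SE 0.44, 95% interval -0.44 to 1.48, edgeR adjusted P = 0.677), and the exact two-sided permutation test over the 70 arrangements of the libraries gave P = 0.286.

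Glul, the enzyme that makes glutamine from glutamate and ammonia, lay at 164, 202, 468 and 286 CPM in the control libraries and 307, 248, 296 and 411 CPM in the morphine libraries. Control replicate 5 was the highest and control replicate 1 the lowest of the 8. The difference was 0.17 (SE 0.28, 95% interval -0.44 to 0.79, edgeR adjusted P = 0.837). Without control replicate 5 it was 0.52, with an unadjusted P value under 0.05, as 2089 of 18850 genes had. The difference was -0.031 without control replicate 1.

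Both connexin genes followed a similar course. Gja1, the main gap junction protein of astrocytes, had 1.69, 9.21, 2.08 and 3.07 CPM in the control libraries and 5.17, 5.42, 2.73 and 7.73 CPM in the morphine libraries. Gjb6, its partner in grey matter astrocytes, had 0.692, 3.08, 0.765 and 1.44 CPM in the control libraries and 3.26, 2.06, 1.17 and 2.71 CPM in the morphine libraries. In both, control replicate 2 stood well above the other controls,. The differences were 0.39 for Gja1 (SE 0.49, 95% interval -0.68 to 1.46, edgeR adjusted P = 0.771) and 0.62 for Gjb6 (SE 0.46, 95% interval -0.39 to 1.63, edgeR adjusted P = 0.633). Gjb6 rested on 27 to 137 counts per library, and at 27 counts the counting error alone is 19.2%, whereas the controls had a coefficient of variation of 74.3%.

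Aqp4 (NM_009700, chr18:15389394-15410982, overlapped by the lncRNA A830021F12Rik), the water channel of astrocyte endfeet, was at 2.23, 9.59, 2.61 and 3.94 CPM in the control libraries and 4.50, 4.48, 2.66 and 5.98 CPM in the morphine libraries. Control replicate 2 again lay above every other library. The difference was -0.057 (SE 0.42, 95% interval -0.98 to 0.86, edgeR adjusted P = 0.978), and it was 0.60 without control replicate 2.

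Gfap, the filament protein that rises in reactive astrocytes, was at 2.05, 7.99, 3.71 and 6.19 CPM in the control libraries and 6.35, 8.72, 5.10 and 10.4 CPM in the morphine libraries. Control replicate 1 was the lowest and morphine replicate 8 the highest of the 8, and the groups overlapped. The difference was 0.62 (SE 0.36, 95% interval -0.17 to 1.41, edgeR adjusted P = 0.541), and P = 0.171 in the exact two-sided permutation test, the lowest of the 10 genes. With 4 libraries per group that test can give no P value under 0.0286.

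S100b, a calcium-binding protein that astrocytes release, was at 6.77, 20.4, 30.5 and 8.39 CPM in the control libraries and 26.8, 15.7, 8.90 and 34.9 CPM in the morphine libraries. Each group held libraries both near the bottom and near the top. The difference was 0.39 (SE 0.49, 95% interval -0.67 to 1.45, edgeR adjusted P = 0.772).

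The remaining pair are metabolic enzymes. Aldoc, the aldolase isoform of the brain, was at 242, 268, 309 and 149 CPM in the control libraries and 195, 177, 149 and 292 CPM in the morphine libraries, and its difference was -0.25 (SE 0.23, 95% interval -0.77 to 0.26, edgeR adjusted P = 0.677). It was -0.48 without morphine replicate 8, -0.45 without control replicate 6, -0.15 without morphine replicate 7 and -0.13 without control replicate 5. In all, 3 of the morphine libraries lay below 3 of the controls, and morphine replicate 8 and control replicate 6 stood on the other side. Aldh1l1, which oxidises formyltetrahydrofolate, was at 1.31, 2.63, 1.27 and 5.67 CPM in the control libraries and 1.49, 4.63, 3.31 and 4.34 CPM in the morphine libraries. Its highest library was control replicate 6, and its difference was 0.35 (SE 0.48, 95% interval -0.70 to 1.39, edgeR adjusted P = 0.802). With 1 library left out the difference lay between 0.098 (without control replicate 5) and 0.97 (without control replicate 6).

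Gfap and Slc1a2 had more than 1 row in the table, 1 for each RefSeq transcript. How reads shared by transcripts were assigned is not given in the sources used here. Rows were compared within a gene. The count of the Gfap row NM_001131020 was 38.5% to 51.6% of that of NM_010277 (45.2% ± 5.32 in the control and 42.5% ± 4.08 in the morphine group, SD, n = 4, exact two-sided permutation P = 0.4). For Slc1a2, the row NM_011393 was at 13.6% ± 1.46 of NM_001077514 in the control group and at 14.5% ± 0.659 in the morphine group (exact permutation P = 0.286), and NM_001077515 was at 98.9% to 99.8% of it in all libraries (exact permutation P = 0.171). After adjustment over these 3 comparisons every exact permutation P value was 0.4.

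In both groups the fold between the highest and the lowest library exceeded the fold between the group means, for 10 of 10 genes. In the controls the highest library was above the lowest by 3.90-fold to 5.44-fold for the 7 genes under 50 CPM, and by 1.75-fold for Slc1a2, 2.07-fold for Aldoc and 2.85-fold for Glul. In the morphine libraries the same fold lay between 1.18 (Slc1a2) and 3.93 (S100b). Control replicate 1 was the lowest of the 8 libraries for 7 of the 10 genes and among the lowest pair for 9. Morphine replicate 8 was in the highest pair for 7, and morphine replicate 7 was the lowest morphine library for 7. Control replicate 2 was the highest library for Aqp4, Slc1a3 and Gja1.

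Summed over the 7 genes under 50 CPM (Aqp4, Gfap, Aldh1l1, Slc1a3, Gja1, Gjb6 and S100b), the level was 16.9, 63.5, 43.2 and 34.6 CPM in the control libraries and 53.7, 49.4, 29.9 and 75.8 CPM in the morphine libraries, with group means of 39.6 ± 19.4 and 52.2 ± 18.8 CPM (SD, n = 4). The difference of these means was smaller than the SD of either group. Summed over Slc1a2, Aldoc and Glul, the level was 836.6 ± 133.8 CPM in the control and 836.3 ± 139.0 CPM in the morphine group.

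A block of 5 genes moved together. Among Aqp4, Gfap, Slc1a3, Gja1 and Gjb6, the 10 pairwise Pearson correlations of log2 CPM over the 8 libraries lay between 0.80 and 0.96. Each of the 5 had a correlation between 0.84 and 0.95 with the mean of the other 9 genes. The 5 were picked from these same correlations, and the other 9 include the rest of the block, so high values are built in. Glul and Aldoc went least with these 5 genes, with correlations of -0.058 to 0.32 and of -0.21 to 0.21 with each of them. Slc1a2 (0.48 to 0.70), Aldh1l1 (0.37 to 0.71) and S100b (0.28 to 0.56) lay between. Over all 45 pairs, 10 were below 0, the lowest -0.50 for Aldoc and Aldh1l1, and the pair of Aldh1l1 and Slc1a2 stood at 0.87. These values describe 8 libraries, within each of which all genes share 1 purification and 1 depth, and no test was made of them.

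**Figure D3:**
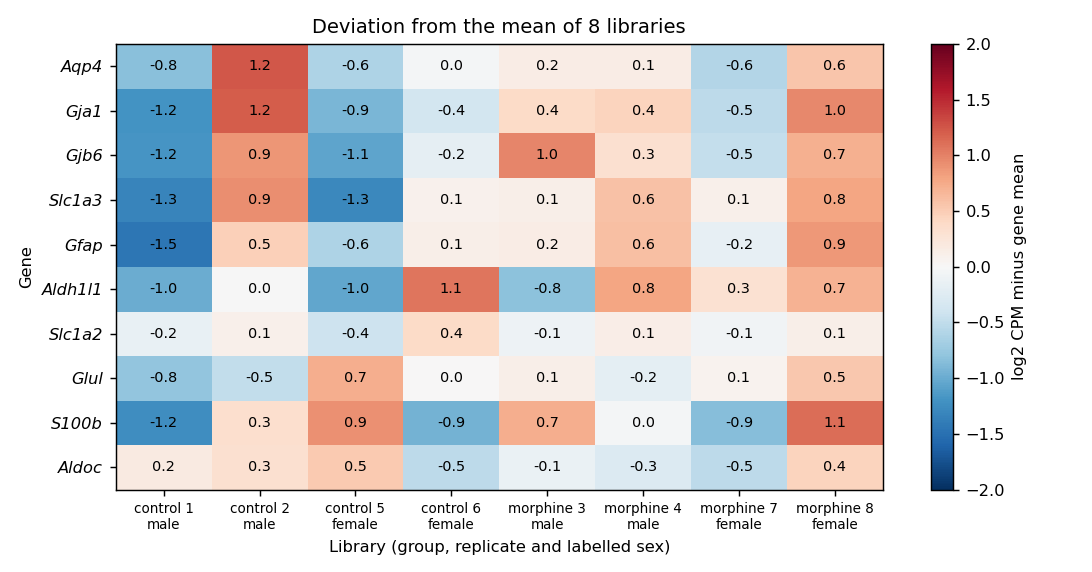
The log2 CPM of each gene (row) in each library (column) after subtraction of the gene's mean over the 8 libraries, with the value in each cell (red above, blue below). Aqp4, Gja1, Gjb6, Slc1a3 and Gfap are low together in control replicates 1 and 5 and high together in control replicate 2 and morphine replicate 8, and Glul and Aldoc take another course.

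The genes most like the 10, by Pearson correlation with the mean standardized level of the 10 over the 8 libraries, were sought among 9368 genes of at least 10 CPM. They were Dpy19l1 (0.991), Hiat1 (0.972), Pam (0.970), Sec61a2 (0.970), 2510039O18Rik (0.969), Epha8 (0.967), Slc43a2 (0.966) and Cd81 (0.965). Dpy19l1 ran from 20.5 to 43.0 CPM in the control and from 30.8 to 51.9 CPM in the morphine libraries. None of these 8 was called between the groups by edgeR (adjusted P between 0.584 and 0.763).

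Oligodendrocyte genes took up a larger and more variable share than the low astrocyte genes. The sum of 10 oligodendrocyte markers (among them Mbp, Mobp, Mog, Mag, Cnp, Cldn11, Opalin, Ermn and Ugt8a) was 131.1, 479.4, 1292 and 811.5 CPM in the control libraries and 607.4, 849.4, 852.9 and 1591 CPM in the morphine libraries, and none of the 10 was at 0 in any library. The lowest library (control replicate 1) and the highest pair (control replicate 5 and morphine replicate 8) were the same as for Glul and S100b. Control replicate 2, the highest for Aqp4, Slc1a3 and Gja1, was next to the lowest in oligodendrocyte markers. The log2 fold change was above 0 for 10 of these 10 genes (median 0.56), against 51.4% of all genes. Of the 10, 0 were called by edgeR, against 0.195% of all genes. At an unadjusted P value under 0.05, 0 of the 10 passed, against 12.1% of all genes. The part of oligodendrocyte RNA in the levels of Glul and S100b was not tested.

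**Figure D4:**
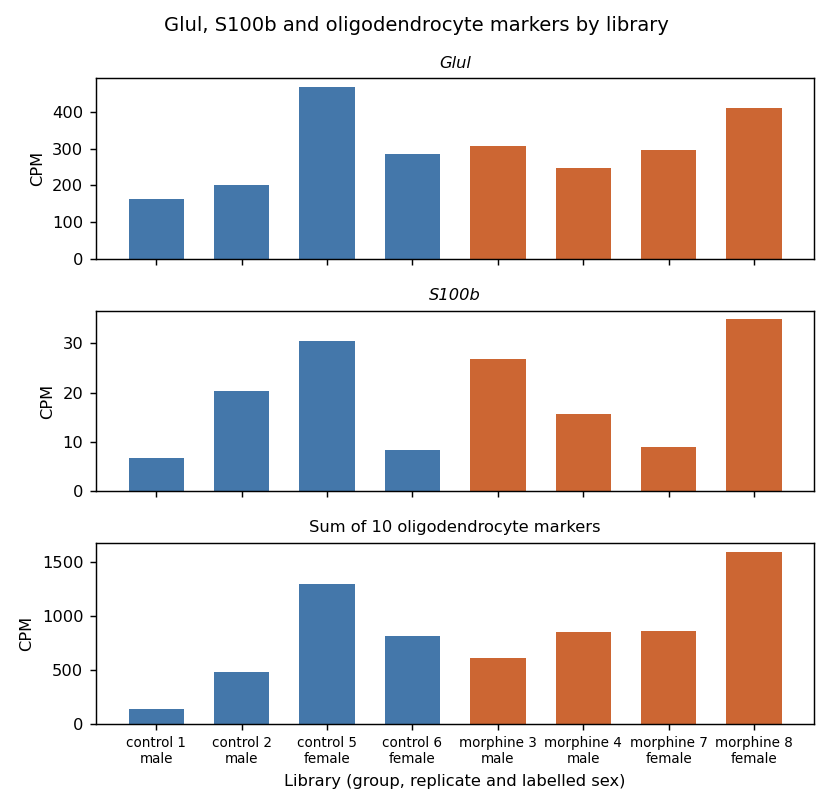
The level (CPM, linear axis from 0) of Glul, of S100b and of the sum of 10 oligodendrocyte markers in each of the 8 libraries (blue control, orange morphine, 1 bar per library). All of these are lowest in control replicate 1, and control replicate 5 and morphine replicate 8 are the highest pair in each.

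Other cell types were represented unevenly, and their part in the astrocyte gene levels was not tested. Microglial markers summed to 7.08 to 16.8 CPM in the control and 7.83 to 15.6 CPM in the morphine libraries (3 of 10 above 0 in log2 fold change, Trem2 at 0 in a library), and oligodendrocyte precursor markers to 6.13 to 21.2 and 8.77 to 26.5 CPM (5 of 5). Endothelial markers summed to 2.90 to 8.73 and 3.12 to 5.18 CPM (4 of 9, Tie1 at 0 in a library), mural markers to 4.08 to 11.95 and 5.26 to 6.96 CPM (1 of 7, Kcnj8 at 0 in a library), leptomeningeal fibroblast markers to 1.15 to 3.78 and 1.27 to 6.69 CPM (2 of 5), and ependymal markers to 4.95 to 6.98 and 5.28 to 11.6 CPM (5 of 6, Tmem212 at 0 in a library). Choroid plexus markers went with the groups, with 35.8 to 106.9 CPM in the control and 127.8 to 397.9 CPM in the morphine libraries, 11 of 12 above 0 and 8 called by DESeq2 (0 by edgeR, 10 at an unadjusted P value under 0.05, Kcnj13 at 0 in a library). Telencephalic pyramidal neuron markers were at 1012 to 1499 and 1250 to 2446 CPM, 10 of 10 above 0 with 4 called by DESeq2 and 0 by edgeR (7 at an unadjusted P value under 0.05). Over all genes the shares were 2.65% for DESeq2 and 12.1% for an unadjusted P value under 0.05 in edgeR. Pan-neuronal markers were at 7812 to 8988 and 7906 to 8487 CPM (4 of 7), PVT and thalamic neuron markers at 1787 to 2258 and 1307 to 2410 CPM (1 of 7), and medial habenula neuron markers at 41.7 to 59.4 and 43.7 to 68.5 CPM (5 of 6). At an unadjusted P value under 0.05 in edgeR, 2 of the 7 PVT and thalamic neuron markers passed, 0 up and 2 down. The median log2 fold change of these 7 was -0.29. Of the pan-neuronal markers 2 passed (1 up, 1 down). All up were the 2 of 6 ependymal, 1 of 6 medial habenula, 1 of 9 endothelial and 1 of 5 leptomeningeal fibroblast markers that passed. Of the microglial, oligodendrocyte precursor and mural markers 0 passed.

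Sex was compared with condition in the model. None of the 10 genes was called between female and male libraries by edgeR (background 0.00528%, or 1 gene), and 1 of the 10 had an unadjusted P value under 0.05, against 3.1% of all genes. That gene was Glul, at 365.4 ± 89.0 CPM in the female and 230.3 ± 61.6 CPM in the male libraries (SD, n = 4). The female libraries lay between 286 and 468 CPM and the male libraries between 164 and 307 CPM, so that only morphine replicate 3 reached into the female range. The difference was 0.70 on the log2 scale (SE 0.19, 95% interval 0.27 to 1.12, edgeR adjusted P = 0.85, DESeq2 adjusted P = 0.221), and the exact two-sided permutation test gave P = 0.0857. Without control replicate 5, whose sex label its Y-linked counts put in doubt, it was 0.46 (SE 0.15), and 0 of the 10 genes were called between the sexes. Oligodendrocyte markers were at 811.5 to 1591 CPM in the female and 131.1 to 849.4 CPM in the male libraries, and their part in this difference was not tested. The other 9 genes had edgeR adjusted P values of 1.00 for sex, with log2 differences between -0.61 (Gjb6) and 0.56 (Aldh1l1). Without control replicate 5 these lay between -0.43 (Gjb6) and 0.82 (Aldh1l1), and they changed sign for S100b (from 0.28 to -0.24), Aldoc (from 0.045 to -0.15) and Slc1a3 (from -0.27 to 0.015). Without control replicate 2 the sign changed for Aqp4 (from -0.45 to 0.18), Gja1 (from -0.54 to 0.22) and Slc1a3 (to 0.40), and Gjb6 was at -0.057. Without morphine replicate 8 Gja1 was at -1.04 and Aqp4 at -0.82, and the sign changed for Gfap (from 0.011 to -0.24), S100b (to -0.12) and Aldoc (to -0.22). Aldh1l1 was at 1.02 without morphine replicate 4, and Gjb6 at -0.87 without control replicate 1.

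The interaction asked whether the difference between morphine and control differed by sex, with 2 libraries for each sex and condition. Of all genes 0% were called by edgeR (0 genes) and 1.72% had an unadjusted P value under 0.05, and 0 of the 10 did either. The lowest unadjusted P value was that of Glul, 0.073, for an interaction of -0.69 on the log2 scale (SE 0.35), and with 1 library left out it lay between -0.29 (without control replicate 5) and -1.02 (without control replicate 6). Without control replicate 2, control replicate 6 or morphine replicate 8 Glul had an unadjusted P value under 0.05, as had Gja1, Aqp4 and Slc1a3 without control replicate 1 (log2 1.81, 1.49 and 1.49) and Aldoc without control replicate 5 (1.03), with edgeR adjusted P values of 1.00. Each such fit leaves 1 library in an arm, which is assumed to vary like the other groups. Without control replicate 1 that lone library is control replicate 2, the highest of the 8 for Gja1, Aqp4 and Slc1a3. DESeq2 called 4 of all genes and 0 of the 10.

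Among a further 28 astrocyte-enriched genes, 0 were called by edgeR (0.195% of all genes) and 0 by DESeq2 (2.65% of all genes). The log2 fold change was above 0 for 22 of 28, against 51.4% of all genes, and the median of the 28 was 0.34. Their sum lay between 751.7 and 1163 CPM in the control and between 862.2 and 1274 CPM in the morphine libraries. The highest of them by CPM were Ndrg2 at 220.3 ± 14.9 and 195.1 ± 35.3 CPM (control and morphine, SD, n = 4), Sparcl1, a secreted synapse-organising protein, at 168.5 ± 53.7 and 214.5 ± 78.3 CPM, and the metallothionein gene Mt3 at 155.9 ± 14.7 and 186.8 ± 22.9 CPM. Sox9, Slc4a4, Mt3 and Slc15a2 had unadjusted P values under 0.05, and all 4 had log2 fold changes above 0, so that 4 of 28 passed against 12.1% of all genes. Sox9, a transcription factor of the glial lineage, was at 2.87, 3.53, 2.30 and 5.62 CPM in the control and 6.16, 6.54, 4.87 and 6.21 CPM in the morphine libraries (log2 0.73, SE 0.25, edgeR adjusted P = 0.267). Slc15a2, a peptide transporter with 8 to 45 counts per library, was the only one of the 28 whose groups did not overlap, against 6.55% of all genes (log2 1.15, SE 0.35, edgeR adjusted P = 0.219).

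Of 35 genes of reactive astrocytes, 0 were called by edgeR (0.195% of all genes) and 2 by DESeq2. The log2 fold change was above 0 for 22 of the 35 (median 0.16), against 51.4% of all genes. At an unadjusted P value under 0.05 in edgeR, 5 of the 35 passed, 5 up and 0 down, against 12.1% of all genes. The list is sparse here, since 20 of the 35 had fewer than 10 counts in some library and 8 had none in some library. The 2 of 35 genes called by DESeq2, against 2.65% of all genes, were Ptgs2 and Cd109. They were also the 2 of 35 whose groups did not overlap, against 6.55% of all genes. Ptgs2, the inducible cyclooxygenase, which neurons also make, was at 0.128, 0.878, 0.430 and 1.60 CPM in the control and 2.50, 5.75, 3.38 and 4.46 CPM in the morphine libraries (edgeR log2 2.41, SE 0.53, adjusted P = 0.0962, DESeq2 adjusted P = 0.000444). Cd109 was at 0.457 ± 0.128 and 1.02 ± 0.192 CPM (SD, n = 4; edgeR log2 1.16, SE 0.28, adjusted P = 0.130, DESeq2 adjusted P = 0.0310). Lcn2, often read as a sign of strong astrocyte reaction, had at most 3 counts in any library and 0 in all controls. Fkbp5, which glucocorticoids induce, was the highest of the list by CPM, at 47.4 ± 2.05 in the control and 57.0 ± 8.26 in the morphine group (edgeR adjusted P = 0.354), followed by Amigo2 (23.8 and 27.9 CPM) and S100a10 (14.2 and 14.8 CPM). Vim, an intermediate filament gene, was at 2.39 ± 0.525 and 2.42 ± 0.356 CPM.

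In the glutamate-glutamine cycle, 12 of 14 genes had a log2 fold change above 0 (median 0.21), 0 were called by edgeR (0.195% of all genes) and 2 by DESeq2 (2.65% of all genes), 5 passed an unadjusted P of 0.05 (12.1% of all genes), and 3 of the 14 are among the 10 astrocyte genes. The DESeq2 calls were Slc17a7, the vesicular glutamate transporter of cortical neurons, at 120.9 ± 50.5 CPM in the control and 267.4 ± 88.2 CPM in the morphine group (SD, n = 4; DESeq2 adjusted P = 0.00482, edgeR adjusted P = 0.142), and Slc38a5, a glutamine transporter with 0 to 43 counts per library (DESeq2 adjusted P = 0.00906, edgeR adjusted P = 0.122). Slc17a7 is also among the telencephalic markers given above. Slc1a1, the neuronal glutamate transporter, was at 46.9, 85.8, 62.7 and 61.8 CPM in the control and 82.1, 93.8, 85.1 and 114.8 CPM in the morphine libraries, where only control replicate 2 reached the morphine range (log2 0.55, SE 0.17, edgeR adjusted P = 0.226). The glutamine transporter gene Slc38a1 was at 352.6 ± 22.4 and 370.3 ± 32.1 CPM.

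The smaller families held 0 genes called by edgeR, against 0.195% of all genes. Of 10 connexin and pannexin genes 8 were above 0 (median 0.30) and 0 had an unadjusted P value under 0.05, against 12.1% over all genes. The highest by CPM were Panx2 (95.1 ± 27.8 and 99.7 ± 22.6 CPM), Gjc3, an oligodendrocyte connexin (15.2 ± 11.5 and 23.2 ± 5.72 CPM), and Gjc1 (15.9 ± 4.24 and 16.3 ± 3.64 CPM). Of 12 genes of potassium and water handling 8 were above 0 (median 0.15), and Dmd, the dystrophin gene, was the only 1 of the 12 below that threshold (72.7 ± 11.5 and 60.8 ± 1.81 CPM, edgeR adjusted P = 0.408), beside Atp1b2 at 156.0 ± 29.6 and 179.3 ± 38.9 CPM and Dtna at 140.5 ± 20.5 and 150.5 ± 9.98 CPM. Of 5 intermediate filament genes 2 were above 0 (median -0.046), the highest by CPM being Synm (36.4 ± 4.398 and 35.3 ± 3.00 CPM).

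Of 10 genes of aldolase, lactate and glycogen metabolism, 4 were above 0 (median -0.032), and Pygb and Gys1, which break down and build glycogen, had unadjusted P values under 0.05 (2 of 10, against 12.1% of all genes). Pygb was at 118.8 ± 11.9 CPM in the control and 95.9 ± 11.4 CPM in the morphine group (edgeR adjusted P = 0.2998). Aldoa, the widely expressed aldolase, was at 2100 ± 186.1 and 1982 ± 130.7 CPM, and Ldhb at 305.5 and 303.8 CPM. Of 10 one-carbon folate enzyme genes 2 were above 0 (median -0.081). Mthfd1l, the mitochondrial formyltetrahydrofolate synthetase, was at 20.6, 20.2, 23.3 and 19.8 CPM in the control and 18.9, 13.4, 14.9 and 14.9 CPM in the morphine libraries, with no overlap (log2 -0.43, SE 0.13, edgeR adjusted P = 0.193, DESeq2 adjusted P = 0.0463). Mthfd1 was at 30.0 and 28.1 CPM.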

How the data were processed

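The authors deposited unnormalized integer counts of reads for each library, in 1 table of 24488 RefSeq transcripts. The tool that made these counts is not given in the sources used here. The submitters' processing notes name mm10 and DESeq2, and the published methods describe Salmon with tximport for a gene-level matrix, whereas this table lists transcripts. Libraries were stranded and sequenced in pairs. Whether counting used the strand is not stated. How reads shared by transcripts were assigned is not given either, so for 3532 genes with several rows the row with the highest total was used. 0 columns and 0 rows were left without a sample or gene name. Groups and sex came from the labels.

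Counts were TMM-normalized and tested with edgeR 4.0.16 (quasi-likelihood, R 4.3.3), Benjamini-Hochberg adjusted over 18939 genes (none was 0 in every library), and called under 0.05. CPM and log2 CPM (prior count 2) were computed from them. Exact two-sided permutation tests used log2(CPM + 0.5) and 70 arrangements. Transcript lengths came from GENCODE M21, and positions and promoters from RefSeq. Alternatives were DESeq2 1.42.0, limma-voom (limma 3.58.1), other scaling factors, 2 filters on low counts, sex in the model, the sum over transcripts, and each library left out. The fits were tested on simulated data. Depth gives a counting error of 19.2% at the lowest count of the 10 genes, and PCR copies are not marked, so that this covers counting error only.

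The members and lists were chosen with earlier results of these data known. Named were all 10 genes and, from each gene list (further astrocyte-enriched, reactive astrocyte, glutamate-glutamine, connexin, potassium and water, filament, metabolic, folate), genes called and the 3 highest by CPM. Genes named beyond this rule (those with an unadjusted P value under 0.05 or a DESeq2 call, Lcn2 and Vim) were chosen after their values were seen. Some listed genes that the rule would name are not reported here. Genes most like the 10 were the 8 with the highest correlation. Figures were drawn with matplotlib 3.10.9.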

Additional observations from a re-analysis of the deposited data

How the results depend on the processing

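In all 17 fits 0 of the 10 astrocyte genes were called between morphine and control. All genes called numbered 37 in edgeR, against 502 in DESeq2, 14 with filterByExpr, 15 with at least 10 counts in every library, 110 with sex in the model, 23 in limma-voom and 22 with the sum over transcripts, and from 0 to 77 with 1 library left out. They were 0 without morphine replicate 4 (1697 genes at an unadjusted P value under 0.05) and without morphine replicate 8 (1664), 1 without control replicate 1 (1433), 11 without morphine replicate 7, 20 without control replicate 5, and 77 without control replicate 6 or morphine replicate 3.

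The log2 fold change of Aqp4 (-0.057) was 0.0026 with sex in the model and 0.15 in limma-voom, and from -0.30 to 0.60 with 1 library left out. That of Slc1a2 (0.014) was -0.011 with upper-quartile factors, -0.0020 with filterByExpr, and from -0.12 to 0.15 with 1 library left out. That of Glul (0.17) lay between -0.031 and 0.52. The other genes kept their direction under all 16 alternatives. The median of the 10 (0.37) lay between 0.099 (without morphine replicate 8) and 0.55 (without control replicate 2). Without control replicate 2, Gfap, Slc1a3, Gja1 and Gjb6 had unadjusted P values under 0.05, as 3476 of all genes did, with log2 fold changes of 0.95, 1.13, 1.21 and 1.26 and a lowest edgeR adjusted P value of 0.102 (Gja1). Without control replicate 1 the log2 fold changes of these 4 genes were 0.35, 0.26, 0.13 and 0.37, and 6 of the 10 genes were above 0. Without control replicate 6, Aldh1l1 and Aldoc passed this unadjusted threshold, as 1968 of 18855 genes did. Without morphine replicate 8 Aldoc passed it, as 1664 of 18786 genes did. S100b was between 0.054 (without morphine replicate 8) and 0.85 (without control replicate 5). The causes were not tested.

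No paired analysis was possible because the groups share no replicate numbers. No gene of the 10 stood out by Dixon's test in either group. The spread between libraries, which exceeded the counting error of each of the 10 genes, limits the precision, and each interval stands beside its value. No batch is given in the labels.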
